A study of Mus musculus with 6 samples.

Results

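The tumor necrosis factor (TNF) superfamily was followed here as the genes whose symbols run Tnfsf or Tnfrsf plus a number, with at most 1 letter after it, in the deposited expression table. The rule used names and no measured value, and it found 32 of the 38924 listed genes: 11 ligands (Tnfsf) and 21 receptors (Tnfrsf). They carry 31 symbols, because Tnfrsf22 stands on 2 gene identifiers. At least 10 counts over the 6 libraries were reached by 28 members, 9 ligands and 19 receptors. A filter on low counts, which a gene could pass through 1 library alone, let 26 of these into the tests.

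Ligands of the superfamily are membrane proteins, some of them also shed, that act as trimers and cluster their receptors on the surface of a neighbouring or the same cell. Receptors with a death domain, such as Tnfrsf1a, can recruit adaptors such as Tradd and Fadd, whereas most others bind TRAF proteins, and both kinds can lead to the transcription factor NF-kappaB; decoy receptors bind a ligand without passing the signal on. In skeletal muscle the family is best known for Tnf in inflammation and wasting, and for TWEAK and its receptor Fn14 (Tnfsf12 and Tnfrsf12a), which respond to injury.

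The study set induced myogenic progenitor cells (iMPCs), which are obtained from mouse fibroblasts by direct conversion toward the muscle lineage, beside satellite cells, the resident muscle stem cells. Poly(A)-selected RNA was sequenced from 6 samples in 5 groups: iMPCs sorted as positive and as negative for a nuclear green fluorescent Pax7 reporter (1 library each), activated satellite cells (ASC, titled Pax7-plus and p1, 1 library), mouse embryonic fibroblasts (MEF, 1 library) and quiescent satellite cells (QSC, 1 library each from mouse 1 and mouse 3). Per the labels, iMPCs were expanded with doxycycline withdrawn and 3 small molecules added: forskolin (5 µM), an activator of adenylyl cyclase, RepSox (5 µM), which blocks TGF-beta receptor kinase activity, and an inhibitor of the kinase GSK3 (3 µM). The labels carry 1 protocol text for all samples, do not give the medium of the ASC and MEF libraries or the strain, age or sex of the mice, and list fibroblasts of embryos and of tail tips as sources without saying which gave these iMPCs.

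The text turns most on 3 members, Tnfrsf9 and Tnfsf11, which were near 0 in QSC and higher in both iMPC fractions, and Tnfrsf12a, which was by far the highest in QSC. Their promoter windows are shown for that reason: the 250 bases before the annotated start, 5′ to 3′ along the gene's strand, from RefSeq on GRCm38.p6, whose table held 24 of the 31 symbols. This build differs from that of the counts (mm9), so the coordinates describe the windows and nothing in the count files. Capitals mark matches on either strand to 4 short motifs: TGANTCA (AP-1 type), TGACGTCA (cAMP response element type), CAGCTG (an E-box) and GGGNN directly followed by TTTCC (NF-kappaB type).

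Tnfrsf9 (chr4:150927749-150927998, + strand): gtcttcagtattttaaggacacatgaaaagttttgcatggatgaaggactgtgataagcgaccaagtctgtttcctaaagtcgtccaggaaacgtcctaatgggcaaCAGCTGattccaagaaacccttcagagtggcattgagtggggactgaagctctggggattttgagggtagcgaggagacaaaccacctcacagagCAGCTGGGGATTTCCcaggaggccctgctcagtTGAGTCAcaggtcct
Tnfsf11 (chr14:78308044-78308293, - strand): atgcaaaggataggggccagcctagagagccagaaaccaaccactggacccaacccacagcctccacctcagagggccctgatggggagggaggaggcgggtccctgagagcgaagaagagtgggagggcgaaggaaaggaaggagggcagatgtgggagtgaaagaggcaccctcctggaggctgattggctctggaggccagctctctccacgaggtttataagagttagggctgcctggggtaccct
Tnfrsf12a (chr17:23677450-23677699, - strand): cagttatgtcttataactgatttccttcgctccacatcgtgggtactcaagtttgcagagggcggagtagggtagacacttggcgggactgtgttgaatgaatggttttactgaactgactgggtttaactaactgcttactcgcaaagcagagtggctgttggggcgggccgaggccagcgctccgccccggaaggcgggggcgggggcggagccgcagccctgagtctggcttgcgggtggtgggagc

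The Tnfrsf9 window held 4 matches: an E-box starting 143 bases before the start site, another at 48, an NF-kappaB-type match at 43, and an AP-1-type match at 15. The last G of the nearer E-box is also the first G of the NF-kappaB-type match. The table lists another start for Tnfrsf9 (chr4:150919905-150920154, + strand), whose window held 0 matches. The Tnfsf11 and Tnfrsf12a windows held 0 matches too. Among all 32851 windows of this length in the table, 6.75% held the AP-1 type, 1.55% the cAMP response element type, 13.0% the E-box and 1.41% the NF-kappaB type.

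The ASC library was the smallest, at 20859611 counts, and QSC of mouse 1 the largest, at 29279686; a count was seen for 18309 to 19545 genes per library. Levels are given in CPM (counts scaled to a common library size) after TMM scaling, which corrects for a few abundant genes taking up much of a library, and for comparison between genes as TMM-scaled RPKM, which also divides by gene length. Pax7, the gene of the reporter, stood at 37.8 CPM in Pax7-positive and 6.25 in Pax7-negative iMPCs, 19.8 in ASC and 0 counts in MEFs, against 34.5 and 159.7 CPM in QSC of mouse 1 and mouse 3. Myod1, a factor of activated and committed muscle cells, had 718 CPM in Pax7-positive and 404 in Pax7-negative iMPCs, 1029 in ASC and 0.598 in MEFs, against 1835 and 629 CPM in QSC, so the library labelled QSC of mouse 1 was the highest in it. The QSC pair differed in erythroid markers (6 genes summed, 1299 and 20.1 CPM), in endothelial markers (11 genes, 238 and 50.8 CPM), in Myog (189 and 4.07 CPM) and in the sex-linked genes Xist (0.0953 and 530 CPM) and Ddx3y (454 and 0.226 CPM). All these differences are part of the spread that the tests use, since QSC was the only group with more than 1 library. The sex-linked genes differed among the cultured libraries too. Xist had 39.1 and 24.7 CPM in Pax7-positive and Pax7-negative iMPCs, 0.0431 in ASC and 41.9 in MEFs. Ddx3y had 0 and 0.135 CPM in the iMPC fractions, 85.2 in ASC and 0.112 in MEFs. The part of sex in the comparisons was not tested. In such bulk samples, fewer cells of a type and less RNA per cell cannot be told apart.

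Each of the other groups was compared with QSC by edgeR's quasi-likelihood test with Benjamini-Hochberg adjustment over all 17116 tested genes, and a gene is called at an adjusted p under 0.05. Each lone library was assumed to vary as much as the 2 QSC mice, and the 4 comparisons share those mice, so their values are set side by side with no test of overlap. In Pax7-positive iMPCs, 3 of the 26 tested members rose and 5 fell, beside 11.3% and 9.31% of all tested genes. In Pax7-negative iMPCs, 6 rose and 1 fell, beside 12.1% and 6.57%. In ASC, 7 rose and 4 fell, beside 11.8% and 8.24%. In MEFs, 8 rose and 5 fell, beside 11.3% and 8.03%. The median log2 fold change of the members was −0.24, 1.6, −1.03 and −0.5 in Pax7-positive iMPCs, Pax7-negative iMPCs, ASC and MEFs, where that of all tested genes was −0.03, 0.15, 0 and 0.

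In all, 18 members were called in at least 1 comparison and 8 tested members in none. The share of all genes called in at least 1 comparison, or in all 4, was not counted. The comparisons share the QSC mice, so these numbers are not read as particular to the members. Tnfsf11 was the 1 member called higher in all 4 comparisons and Tnfrsf12a the 1 called lower in all 4, while Tnfrsf9 was called in both directions. The call of lower members leaned on the scaling: with scaling by library size alone, the median log2 fold change of all genes moved to 0.6, 0.86, 0.59 and 0.61 in the same order of groups, and 1 member remained lower in each comparison, Tnfrsf12a in both iMPC fractions and MEFs and Tnfrsf1a in ASC. Higher calls under that scaling numbered 4, 6, 5 and 6.

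**Figure D1:**
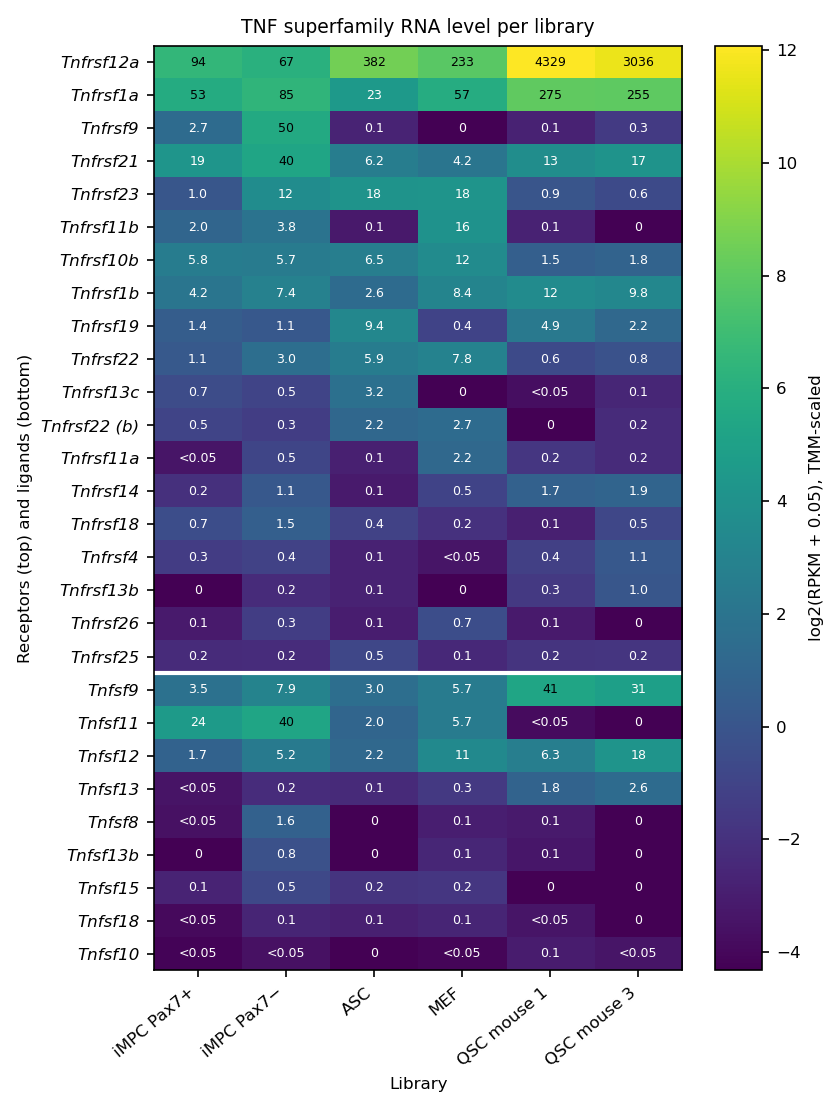
TMM-scaled RPKM of the 28 members with 10 or more counts (rows, receptors above ligands) in the 6 libraries (columns); color is log2(RPKM + 0.05) and the printed value is RPKM. Tnfrsf12a and Tnfrsf1a were the highest pair in every library, Tnfrsf9 stands out in Pax7-negative iMPCs at 50.5 and Tnfsf11 in both iMPC fractions at 24.3 and 40.1.

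**Figure D2:**
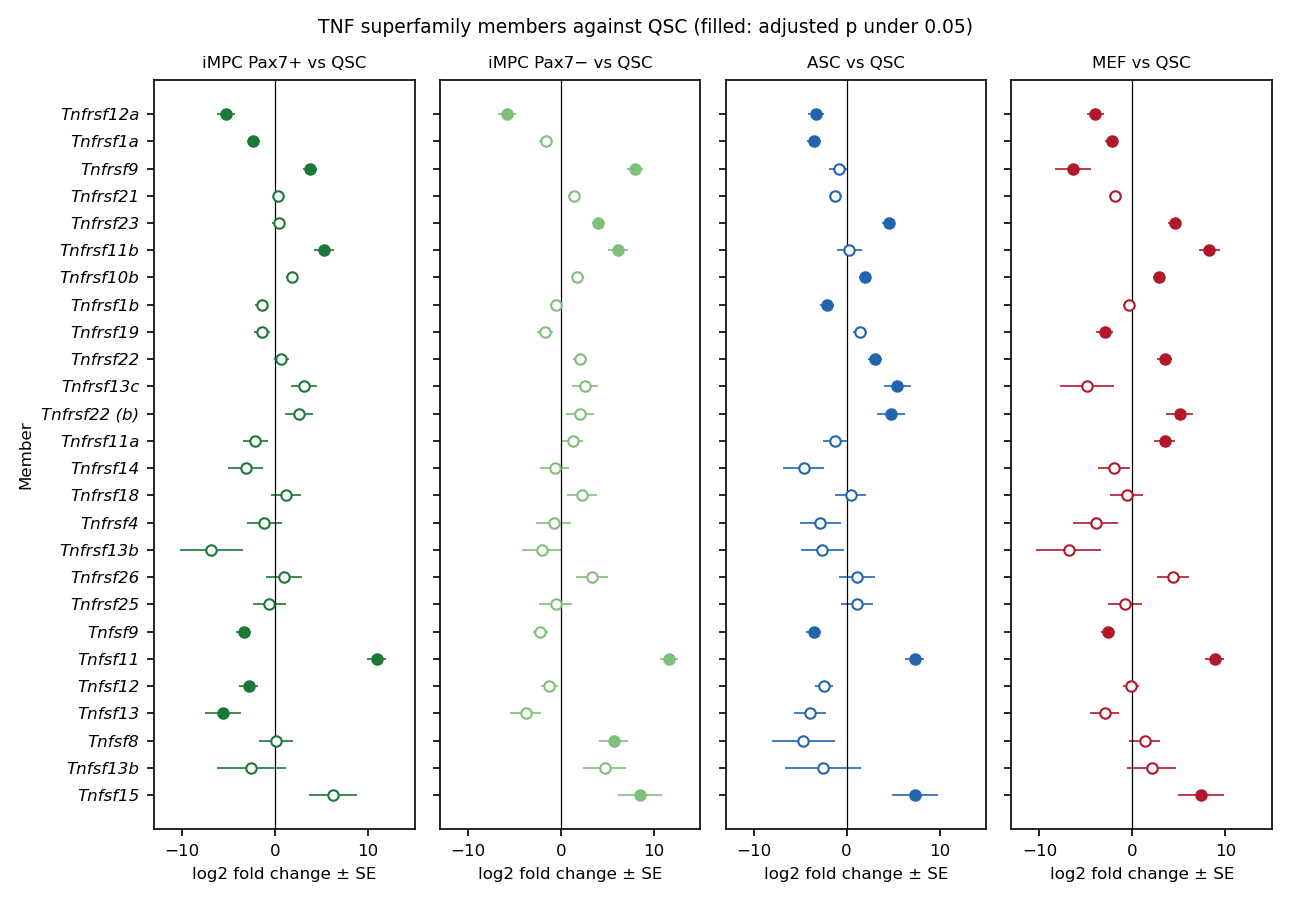
Log2 fold change against QSC for the 26 tested members in the 4 comparisons (panels, 1 library each against 2 QSC mice). Bars are standard errors derived from the test statistic, and filled points passed an adjusted p of 0.05. Tnfsf11 is filled on the right and Tnfrsf12a on the left of 0 in all 4 panels.

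Tnfrsf12a encodes Fn14, the receptor of TWEAK. It had 90.5 CPM in Pax7-positive and 63.8 in Pax7-negative iMPCs, 367 in ASC and 224 in MEFs, against 4152 and 2911 CPM in QSC of mouse 1 and mouse 3. Every cultured library thus lay below both QSC libraries, and the iMPC fractions lay lowest. Against QSC the summed counts were 38.9-fold lower in Pax7-positive iMPCs (95% counting interval 37.4 to 40.4), 55.1-fold lower in Pax7-negative iMPCs (52.6 to 57.6), 9.58-fold lower in ASC (9.38 to 9.8) and 15.7-fold lower in MEFs (15.3 to 16.1). These intervals leave out the spread between the QSC mice. Tnfrsf12a was 1.43-fold higher in mouse 1 than in mouse 3. It fell in all 4, with log2 fold changes of −5.29 ± 0.95 (SE) in Pax7-positive iMPCs (adjusted p = 0.00106), −5.79 ± 0.98 in Pax7-negative iMPCs (0.000631), −3.27 ± 0.85 in ASC (0.0114) and −3.98 ± 0.89 in MEFs (0.00461). With scaling by library size the ASC call was lost (adjusted p = 0.0521).

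Per length, Tnfrsf12a alone made up most of the receptor RNA of the family in QSC. Its share of the summed receptor RPKM was 50.3% in Pax7-positive and 23.7% in Pax7-negative iMPCs, 83% in ASC and 64.2% in MEFs, against 93.3% and 91.2% in QSC. Among all genes by RPKM it ranked 991 in Pax7-positive iMPCs, 1374 in Pax7-negative iMPCs, 135 in ASC and 276 in MEFs, against 19 and 30 in QSC. The Pax7-negative iMPC library was the 1 library in which another receptor stood higher, Tnfrsf1a at 85.1 RPKM beside 66.6 for Tnfrsf12a.

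Tnfsf12, which encodes TWEAK, was far lower than its receptor throughout. It had 2.54 CPM in Pax7-positive and 7.73 in Pax7-negative iMPCs, 3.32 in ASC and 16.6 in MEFs, against 9.34 and 27.0 CPM in QSC. The MEF value lay between the QSC mice, and the other 3 cultured libraries lay below both. Tnfsf12 fell in Pax7-positive iMPCs, with a log2 fold change of −2.84 ± 0.98 (adjusted p = 0.0481), a call lost with scaling by library size (0.18); the difference of log2 CPM was −1.85 against mouse 1 alone and −3.37 against mouse 3 alone. Per length, the ratio of Tnfsf12 to Tnfrsf12a RNA was 0.0181 in Pax7-positive iMPCs (95% counting interval 0.0143 to 0.0227), 0.0782 in Pax7-negative iMPCs (0.0678 to 0.0897), 0.00583 in ASC and 0.0479 in MEFs, against 0.00145 and 0.00598 in QSC.

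Tnfrsf1a and Tnfrsf1b encode the receptors of Tnf itself, the first with a death domain and the other without. Tnfrsf1a had 112 CPM in Pax7-positive and 178 in Pax7-negative iMPCs, 48.4 in ASC and 119 in MEFs, against 577 and 534 CPM in QSC, so that QSC stood above every cultured library and ASC was lowest. It fell, with log2 fold changes of −2.31 ± 0.68 in Pax7-positive iMPCs (adjusted p = 0.0229), −3.52 ± 0.73 in ASC (0.00259) and −2.23 ± 0.68 in MEFs (0.0281). In Pax7-negative iMPCs the estimate was −1.64 (adjusted p = 0.0899). With scaling by library size the calls in Pax7-positive iMPCs (0.0905) and MEFs (0.0993) were lost. Tnfrsf1b had 15.8 and 28.4 CPM in Pax7-positive and Pax7-negative iMPCs, 9.78 in ASC and 32.0 in MEFs, against 46.5 and 37.4 CPM in QSC, and fell in ASC, with a log2 fold change of −2.10 ± 0.71 (adjusted p = 0.0457), a call lost with scaling by library size (0.143).

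**Figure D3:**
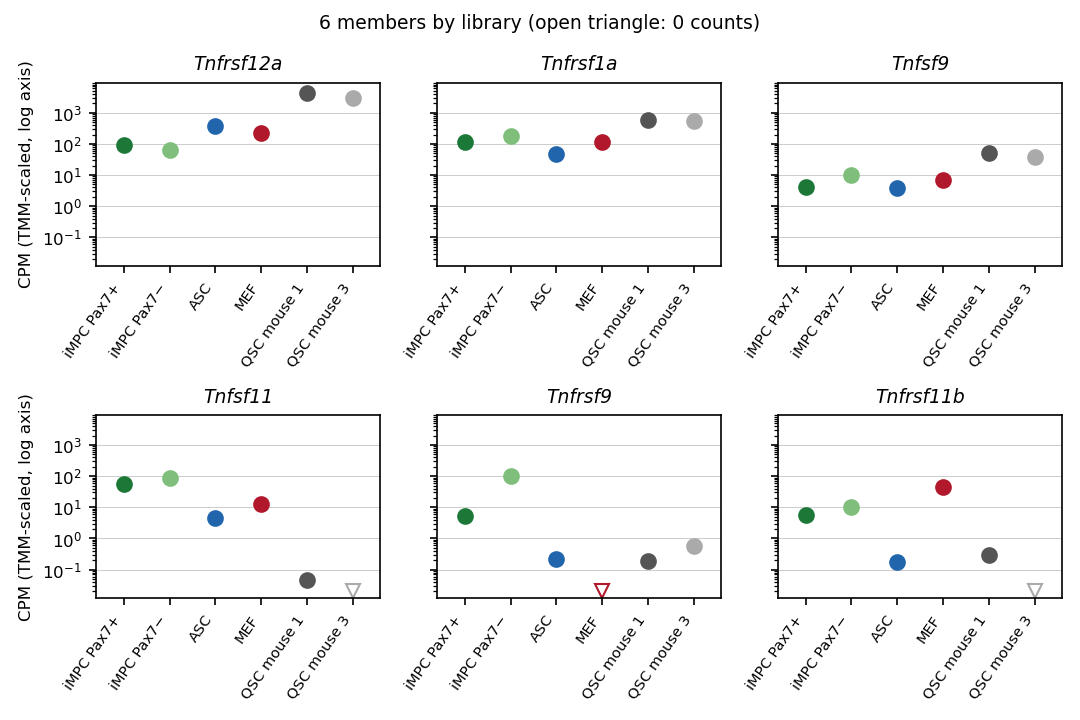
TMM-scaled CPM (log axis) of 6 members in each library, 1 point per library; an open triangle marks 0 counts and has no height of its own. Tnfrsf12a, Tnfrsf1a and Tnfsf9 were above every cultured library in both QSC mice, and Tnfsf11 was near or at 0 there.

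The RANK ligand gene Tnfsf11, whose product drives the formation of osteoclasts through RANK (Tnfrsf11a), showed the widest difference in the family. It had 1690 counts (54.4 CPM) in Pax7-positive and 2657 counts (89.7 CPM) in Pax7-negative iMPCs, 103 counts (4.44 CPM) in ASC and 343 counts (12.8 CPM) in MEFs, against 1 count in QSC of mouse 1 and 0 in mouse 3. The cultured libraries all lay above QSC, and both iMPC fractions lay above ASC and MEFs. Tnfsf11 passed the filter on low counts only through cultured libraries. Since QSC held a single count, the folds are known only within wide counting intervals, 2343 (419.9 to 92597) in Pax7-positive iMPCs, 3867 (693 to 152782) in Pax7-negative iMPCs, 191 (33.6 to 7624) in ASC and 552 (98.5 to 21879) in MEFs. The rise was called in Pax7-positive iMPCs (fitted log2 fold change 10.92 ± 0.99, adjusted p = 7.48e-06), in Pax7-negative iMPCs (11.64 ± 1.00, 3.8e-06), in ASC (7.30 ± 0.99, 6.23e-05) and in MEFs (8.83 ± 0.98, 1.42e-05), and under every alternative fit that was tried. The fitted values depend on how the single count is treated: with a prior count of 2, differences of log2 CPM in Pax7-positive iMPCs were 8.76 against mouse 1 alone and 9.45 against mouse 3 alone. The ± values here are derived from the test statistic and are narrower than the counting intervals, so they understate the uncertainty of these folds.

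Tnfrsf11b encodes osteoprotegerin, a soluble decoy that binds RANK ligand. It had 5.69 CPM in Pax7-positive and 10.6 in Pax7-negative iMPCs, 0.172 in ASC and 45.3 in MEFs, against 0.286 CPM and 0 counts in QSC. MEFs were highest, the iMPC fractions came next, and ASC, with 4 counts, overlapped QSC, with 6 counts in mouse 1. Tnfrsf11b passed the filter on low counts only through MEFs and the iMPC fractions. It rose by 5.29 ± 1.07 in Pax7-positive iMPCs (adjusted p = 0.0024), 6.19 ± 1.08 in Pax7-negative iMPCs (0.000784) and 8.28 ± 1.14 in MEFs (9.63e-05) on the log2 scale. Against mouse 1 alone and mouse 3 alone the differences of log2 CPM were 3.99 and 6.21 in Pax7-positive iMPCs, 4.88 and 7.10 in Pax7-negative iMPCs, and 6.96 and 9.18 in MEFs.

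Within a library, the ratio of ligand to decoy separated the fibroblasts from the iMPCs. Per length, Tnfsf11 RNA was 12.0 times that of Tnfrsf11b in Pax7-positive iMPCs (95% counting interval 10.3 to 14.1), 10.6 times in Pax7-negative iMPCs (9.46 to 12.0), 32.5 times in ASC (12.3 to 121) and 0.357 times in MEFs (0.315 to 0.402). QSC had 1 and 6 counts of the pair in mouse 1 and 0 of both in mouse 3. The receptor gene Tnfrsf11a was low, with 0.225 and 2.43 CPM in Pax7-positive and Pax7-negative iMPCs, 0.431 in ASC and 11.2 in MEFs, against 1.24 and 0.769 CPM in QSC. It rose in MEFs by 3.48 ± 1.11 (adjusted p = 0.0359), or 3.10 and 3.74 against mouse 1 and mouse 3 alone on log2 CPM, and the call was lost with DESeq2 (0.0627) and with a filter of 5 CPM (0.0887). Markers of cartilage and bone cells, 8 genes summed, ran at 91.3 and 92.7 CPM in Pax7-positive and Pax7-negative iMPCs, 165 in ASC and 419.8 in MEFs, against 471 and 646 CPM in QSC, with 4 of the 8 at 0 counts in each QSC mouse. The QSC sums came mostly from Sox9 (374 and 379 CPM) and Alpl (87.9 and 250.2 CPM), whereas Col2a1 had 277 CPM in MEFs, against 0 and 0.497 CPM in QSC, and Ibsp 20.7 CPM in MEFs, against 0 counts in QSC. In ASC, Sp7 had 39.8 CPM, against 0.0953 and 0 CPM in QSC and 1.72 in MEFs. Runx2 had 29.5 CPM in ASC, against 8.63 and 16.1 CPM in QSC and 23.1 in MEFs. Of 7 tested, 4 were called higher and 2 lower in MEFs, and 2 and 2 in ASC. In Pax7-positive iMPCs 1 was called higher and 2 lower, and in Pax7-negative iMPCs 0 and 2. The part of such cells in these results was not tested.

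Tnfrsf9 encodes CD137, a costimulatory receptor best known on activated T cells, and Tnfsf9 its ligand. Tnfrsf9 had 165 counts (5.31 CPM) in Pax7-positive and 2968 counts (100.2 CPM) in Pax7-negative iMPCs, 5 counts (0.215 CPM) in ASC and 0 in MEFs, against 4 and 13 counts (0.191 and 0.588 CPM) in QSC. Both iMPC fractions lay above all other libraries, and the Pax7-negative fraction lay far above the positive one. It rose by 3.75 ± 0.78 on the log2 scale in Pax7-positive iMPCs (adjusted p = 0.00299), a 13.5-fold ratio (95% counting interval 8.15 to 23.7). In Pax7-negative iMPCs it rose by 7.98 ± 0.86 (1.24e-05), a 254-fold ratio (158 to 437). Against mouse 1 and mouse 3 alone, the differences of log2 CPM were 4.33 and 3.02 in Pax7-positive and 8.54 and 7.24 in Pax7-negative iMPCs.

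In MEFs Tnfrsf9 was called lower (adjusted p = 0.0285), with 0 counts against 17 in QSC, which is at least 3.52-fold lower by a floor of 3 counts in the MEF library; the call was lost with scaling by library size (0.111) and with only the compared libraries in the fit (0.185). In ASC it did not pass the test. In the GENCODE annotation of GRCm38, Tnfrsf9 lies antisense to Camta1, and the strand setting of the counting is not given in the sources used here. Camta1 was lower in every cultured library, at 8.49 and 10.7 CPM in Pax7-positive and Pax7-negative iMPCs, 15.6 in ASC and 6.72 in MEFs, against 108 and 156 CPM in QSC. Markers of lymphoid cells, 14 genes, summed to 0.482 and 1.45 CPM in Pax7-positive and Pax7-negative iMPCs, 11.6 in ASC and 1.79 in MEFs, against 2.57 and 4.79 CPM in QSC. In the Pax7-negative library 10 of the 14 had 0 counts, the T-cell genes Cd3e, Cd3d, Cd2, Cd4 and Cd8a among them, but Cd3g had 10 counts and Trbc2 27, against 0 and 2 counts of Cd3g and 0 and 1 of Trbc2 in QSC. Of 7 tested lymphoid markers, 1 was called higher in Pax7-negative iMPCs and 0 lower. The part of lymphoid cells in the Tnfrsf9 result was not tested.

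Between the iMPC fractions and QSC, the ligand gene Tnfsf9 ran the opposite way to Tnfrsf9, whereas in MEFs both genes were called lower. It had 4.28 CPM in Pax7-positive and 9.72 in Pax7-negative iMPCs, 3.75 in ASC and 7.02 in MEFs, against 50 and 37.9 CPM in QSC, with QSC above every cultured library. It fell, with log2 fold changes of −3.36 ± 0.83 in Pax7-positive iMPCs (adjusted p = 0.0085), −3.55 ± 0.84 in ASC (0.00618) and −2.64 ± 0.79 in MEFs (0.0258), and was at −2.18 in Pax7-negative iMPCs (0.0568). All 3 calls were lost with scaling by library size (0.062, 0.0542 and 0.111). Per length, Tnfsf9 RNA was 1.3 times that of Tnfrsf9 in Pax7-positive iMPCs (95% counting interval 1.03 to 1.65), 0.157 times in Pax7-negative iMPCs (0.138 to 0.177), 28.1 times in ASC (11.6 to 88.7) and at least 101 times in MEFs, against 423 times (165 to 1560) and 104 times (60.6 to 197) in QSC. Pax7-negative iMPCs were thus the 1 library with more RNA of the receptor than of the ligand.

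Among the other ligands, Tnfsf15 (TL1A, a T-cell costimulator), Tnfsf8 (CD30 ligand) and Tnfsf13 (APRIL, a B-cell survival factor) were called at low levels. Tnfsf15 had 11 and 53 counts in Pax7-positive and Pax7-negative iMPCs, 18 in ASC and 22 in MEFs, against 0 in both QSC libraries. By a floor of 3 counts over the QSC pair it was at least 5.08-fold higher in Pax7-positive iMPCs (adjusted p = 0.102), 25.7-fold in Pax7-negative iMPCs (0.0213), 11.1-fold in ASC (0.0482) and 11.8-fold in MEFs (0.0457). The 3 calls were lost with DESeq2 (0.0805, 0.149 and 0.14) and with scaling by library size (0.0512, 0.0745 and 0.0725). Tnfsf15 passed the filter on low counts only through cultured libraries.

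Tnfsf8 had 4 and 184 counts (0.129 and 6.21 CPM) in Pax7-positive and Pax7-negative iMPCs, 0 in ASC and 8 in MEFs, against 5 and 0 counts in QSC, so that the Pax7-negative library stood alone. Tnfsf8 passed the filter on low counts only through that library. It rose there by 5.67 ± 1.60 on the log2 scale (adjusted p = 0.0202), a 53.6-fold ratio (95% counting interval 22.5 to 167), or 4.31 and 6.33 against mouse 1 and mouse 3 alone on log2 CPM. That call was lost with scaling by library size (0.0547), DESeq2 (0.0886) and a filter of 5 CPM (0.0782). Tnfrsf8, the receptor of this ligand, had 6 counts in QSC of mouse 1 and 0 in every other library.

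Tnfsf13 had 2 and 7 counts in Pax7-positive and Pax7-negative iMPCs, 5 in ASC and 11 in MEFs, against 57 and 87 counts in QSC, which lay above all the cultured libraries. It fell in Pax7-positive iMPCs (51.9-fold by the ratio of counts, 95% counting interval 14.1 to 433, adjusted p = 0.0458), a call lost with scaling by library size (0.0963), and had adjusted p of 0.122 in Pax7-negative iMPCs and 0.112 in ASC. In the GENCODE annotation Tnfsf12 and Tnfsf13 share a readthrough locus, so reads of the pair could be split between them. Tnfsf13b (BAFF) had 0 and 22 counts in Pax7-positive and Pax7-negative iMPCs, 0 in ASC and 3 in MEFs, against 1 and 0 in QSC. Tnfsf10 (TRAIL), Tnfsf18 (GITR ligand), Tnfsf4 (OX40 ligand) and Tnfsf14 (LIGHT) summed to 19, 20, 8 and 9 counts over the 6 libraries and were not tested. Of the 9 Tnfsf14 counts, 8 were in QSC of mouse 1 and 1 in mouse 3. Myeloid markers, 11 genes summed, stood at 3.35 and 15.4 CPM in Pax7-positive and Pax7-negative iMPCs, 6.55 in ASC and 14.8 in MEFs, against 261 and 123 CPM in QSC, where none of them was at 0; their part in the ligands that were higher in QSC was not tested.

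Tnfrsf22 and Tnfrsf23 are mouse decoy receptors of TRAIL that lie next to each other and to Tnfrsf26 on chromosome 7, and in the GENCODE annotation the antisense gene E230032D23Rik overlaps each of them, so each is uncertain as a single gene where reads could be split or strand was not used. Tnfrsf23 had 2.35 CPM in Pax7-positive and 28.3 in Pax7-negative iMPCs, 40.3 in ASC and 41.1 in MEFs, against 2.14 and 1.36 CPM in QSC. The Pax7-positive iMPCs lay close to QSC, and the other 3 cultured libraries lay far above. It rose by 4.01 ± 0.70 on the log2 scale in Pax7-negative iMPCs (adjusted p = 0.000724), 4.52 ± 0.70 in ASC (0.000243) and 4.55 ± 0.70 in MEFs (0.000276). These were 3.68 and 4.31, 4.18 and 4.81, and 4.21 and 4.84 against mouse 1 and mouse 3 alone on log2 CPM.

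Tnfrsf22 under its main identifier (ENSMUSG00000010751) had 3.83 and 9.96 CPM in Pax7-positive and Pax7-negative iMPCs, 19.6 in ASC and 26.0 in MEFs, against 1.95 and 2.80 CPM in QSC, and rose by 3.04 ± 0.77 in ASC (adjusted p = 0.01) and 3.45 ± 0.78 in MEFs (0.00504). Its other identifier (ENSMUSG00000090852), which the GENCODE annotation used here does not hold, had 0.836 and 0.608 CPM in the iMPC fractions, 3.92 in ASC and 4.74 in MEFs, against 0 and 0.271 CPM in QSC. That identifier passed the filter on low counts only through cultured libraries. This entry rose by 4.79 ± 1.47 in ASC (0.0292) and 5.06 ± 1.48 in MEFs (0.0231), calls lost with scaling by library size (0.075 and 0.0685), DESeq2 (0.0719 and 0.0517) and a filter of 5 CPM (0.0879 and 0.0739). Against mouse 1 and mouse 3 alone it was 5.68 and 3.52 higher in ASC and 5.95 and 3.79 in MEFs on log2 CPM. Tnfrsf26 had 6 and 30 counts in Pax7-positive and Pax7-negative iMPCs, 5 in ASC and 54 in MEFs, against 4 and 0 in QSC, and was called in no comparison.

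Tnfrsf10b, the signalling TRAIL receptor of the mouse, had 18.6 and 18.0 CPM in Pax7-positive and Pax7-negative iMPCs, 20.7 in ASC and 38.6 in MEFs, against 4.77 and 5.70 CPM in QSC. All 4 cultured libraries were above QSC, and the gene rose by 1.98 ± 0.67 on the log2 scale in ASC (adjusted p = 0.0453) and 2.88 ± 0.67 in MEFs (0.0062). The iMPC estimates of 1.83 and 1.78 had adjusted p of 0.0627 and 0.0737. The ASC call was lost with DESeq2 (0.0603), a filter of 5 CPM (0.0615) and only the compared libraries in the fit (0.0749).

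Tnfrsf21 (DR6, a receptor with a death domain) had 68.7 CPM in Pax7-positive and 145 in Pax7-negative iMPCs, 22.4 in ASC and 15.1 in MEFs, against 47.8 and 61.5 CPM in QSC. Both iMPC fractions lay above the QSC pair, and ASC and MEFs lay below it. No comparison with QSC was called; the estimate was 1.41 ± 0.58 on the log2 scale in Pax7-negative iMPCs (adjusted p = 0.0973) and −1.86 ± 0.66 in MEFs (0.0559). The MEF difference passed with DESeq2 (0.0147), a filter of 5 CPM (0.0404), a preset spread (0.0455) and only the compared libraries (0.0479), and the Pax7-negative one with scaling by library size (0.0481).

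Both Tnfrsf19 (TROY, a receptor best known in the nervous system and in hair follicle stem cells) and Tnfrsf13c (the BAFF receptor of B cells) had their highest value in ASC. Tnfrsf19 had 5.76 and 4.63 CPM in Pax7-positive and Pax7-negative iMPCs, 39.3 in ASC and 1.87 in MEFs, against 20.4 and 9.36 CPM in QSC. It fell in MEFs, with a log2 fold change of −2.99 ± 0.92 (adjusted p = 0.0291), or −3.40 and −2.28 against mouse 1 and mouse 3 alone on log2 CPM, and the call was lost with scaling by library size (0.119). Tnfrsf13c had 1.25 and 0.878 CPM in the Pax7-positive and Pax7-negative iMPCs, 6.20 in ASC and 0 in MEFs, against 0.0477 and 0.226 CPM in QSC. Tnfrsf13c passed the filter on low counts only through ASC and the iMPC fractions. It rose in ASC by 5.44 ± 1.44 (adjusted p = 0.0127), or 5.64 and 4.37 against mouse 1 and mouse 3 alone on log2 CPM, and the call was lost with a filter of 5 CPM (0.0581). Of the lymphoid markers in ASC, the T-cell receptor gene Trbc2 had 250 counts, which made 10.8 of the summed 11.6 CPM. The B-cell receptor genes Cd79a and Cd79b had 4 and 2 counts there, and the T-cell genes Cd3e, Cd3g and Cd4 had 2, 8 and 3. The part of other cells in the Tnfrsf13c result was not tested.

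The remaining receptors were low everywhere. Tnfrsf14 (HVEM), Tnfrsf18 (GITR), Tnfrsf4 (OX40), Tnfrsf25 (DR3, the receptor of TL1A) and Tnfrsf13b (TACI) had between 30 and 106 counts over the 6 libraries, and no comparison called them. Tnfrsf18 reached 1.69 CPM in Pax7-negative iMPCs and Tnfrsf14 reached 1.27 CPM in QSC of mouse 3, the highest of their values. Tnfrsf17 (BCMA) had no count in any library, which with a floor of 3 counts says only that it was not detected at this depth.

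A rule of size, with no test, was used beside the fits: at least 4-fold on log2 CPM with a prior count of 2 and at least 5 CPM in the higher group. Against QSC, 11 members reached the level in the comparison of Pax7-positive iMPCs, 14 in that of Pax7-negative iMPCs, 11 in that of ASC and 13 in that of MEFs. Of these the rule counted 3 higher and 4 lower in Pax7-positive iMPCs (27.3% and 36.4%, beside 14.7% and 14.5% of all genes that reached the level). It counted 6 and 2 in Pax7-negative iMPCs (42.9% and 14.3%, beside 16% and 11.2%) and 3 and 5 in ASC (27.3% and 45.5%, beside 16.3% and 13%). In MEFs it counted 6 and 4 (46.2% and 30.8%, beside 15.9% and 12.9%). The rule was then applied between single libraries, where no test was made and intervals cover counting error between these libraries and not the spread between cultures.

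Between the sorted iMPC fractions, 0 of the 14 members that reached the level were higher in the Pax7-positive and 3 were lower, beside 0.208% and 6.66% of all such genes. The 3 were Tnfrsf9, 18.9-fold lower in Pax7-positive iMPCs (95% counting interval 16.1 to 22.2), Tnfrsf23, 12.1-fold lower (9.49 to 15.5), and Tnfsf8, 48.3-fold lower (18.5 to 179). Smaller differences ran the same way for Tnfrsf21, 2.12-fold lower in the Pax7-positive fraction (2.01 to 2.23), Tnfsf11, 1.65-fold lower (1.55 to 1.76), and Tnfrsf1a, 1.60-fold lower (1.53 to 1.67). Below the level, Tnfrsf11a had 7 counts in the Pax7-positive against 72 in the Pax7-negative fraction, and Tnfsf13b 0 against 22. Tnfrsf12a ran the other way, 1.42-fold higher in Pax7-positive iMPCs (1.34 to 1.5). Fibroblast markers, 10 genes summed, stood at 2006 CPM in the Pax7-positive and 8040.1 in the Pax7-negative fraction, and myogenic markers, 8 genes, at 5504 and 4103 CPM. Within the myogenic list Myog went against the sum, at 892 and 1358 CPM, and the other genes of the list went with it. Sums were also higher in the Pax7-negative fraction for endothelial (15.3 and 54.4 CPM), myeloid (3.35 and 15.4 CPM) and pericyte and smooth muscle markers (805 and 1402 CPM). The same held for Schwann markers (2.57 and 21.8 CPM), mostly through S100b (0.289 and 19.5 CPM). The part of all these cell types in the differences was not tested.

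**Figure D4:**
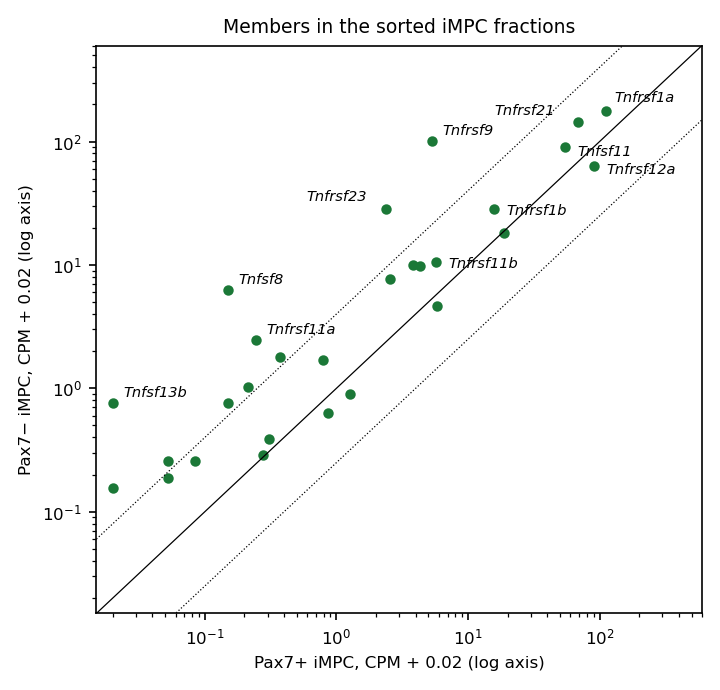
TMM-scaled CPM of the 28 members with 10 or more counts in Pax7-positive (horizontal) and Pax7-negative (vertical) iMPCs, both on log axes with 0.02 added so that 0 can be drawn; the solid line marks equal levels and the dotted lines 4-fold. Tnfrsf9, Tnfrsf23 and Tnfsf8 lie past the upper dotted line at 5 CPM or more in Pax7-negative iMPCs.

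Fibroblasts are the cells from which iMPCs are made, so each fraction was also set beside MEFs, although these MEFs are not known to be the starting culture. In Pax7-positive iMPCs, of the 14 members that reached the level, 3 were higher and 5 lower than in MEFs (beside 4.97% and 8.71% of all genes that reached it). Tnfsf11 was 4.24-fold higher (95% counting interval 3.77 to 4.78), Tnfrsf21 4.56-fold higher (4.10 to 5.09) and Tnfrsf9 at least 47.4-fold higher. The lower ones were Tnfrsf11a, 49.8-fold (23.9 to 125), Tnfrsf23, 17.5-fold (13.8 to 22.5), Tnfrsf11b, 7.95-fold (6.79 to 9.37), Tnfrsf22, 6.78-fold (5.58 to 8.31), and Tnfsf12, 6.53-fold (5.13 to 8.40). In Pax7-negative iMPCs, of the 14 members that reached the level, 4 were higher and 2 lower (beside 7.08% and 3.56% of all such genes). Tnfrsf9 was at least 894-fold higher, Tnfsf8 20.8-fold (10.3 to 48.9), Tnfrsf21 9.66-fold (8.72 to 10.7) and Tnfsf11 7-fold (6.25 to 7.86), while Tnfrsf11a was 4.61-fold (3.55 to 6.05) and Tnfrsf11b 4.26-fold lower (3.76 to 4.83).

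Some ligands and receptors of the superfamily carry other names. Of 7 such ligands (Tnf, Lta, Ltb, Fasl, Cd40lg, Cd70 and Eda) 3 were tested, and 0 were called in the iMPC fractions and ASC by the edgeR fit used throughout and by DESeq2, with 1 at an unadjusted p under 0.05 in each by edgeR. With only the compared libraries in the fit 1 was called lower in ASC, and 1 with no filter; with a preset coefficient of variation of 0.4 there were 3 lower in Pax7-positive iMPCs, 2 in Pax7-negative iMPCs and 2 in ASC. Tnf, the founding ligand, had 3 counts in Pax7-positive iMPCs, 2 in Pax7-negative iMPCs and 0 in ASC and MEFs, against 75 and 19 counts in QSC, and fell in MEFs (adjusted p = 0.047). In MEFs 0 of the 3 ligands were called with scaling by library size. Fasl and Cd40lg had 0 counts in every library. Of 8 such receptors 7 were tested. Fas, the death receptor of Fasl, fell in all 4 comparisons: it had 10.8 and 11.6 CPM in Pax7-positive and Pax7-negative iMPCs, 2.76 in ASC and 21.0 in MEFs, against 242 and 492 CPM in QSC, with a log2 fold change in Pax7-positive iMPCs of −5.09 ± 0.83 (adjusted p = 0.000482), or −4.48 and −5.50 against mouse 1 and mouse 3 alone on log2 CPM. Ngfr, the p75 neurotrophin receptor, had 4.95 and 11.0 CPM in Pax7-positive and Pax7-negative iMPCs, 8.79 in ASC and 0.859 in MEFs, against 0.429 and 0.769 CPM in QSC, and rose in both iMPC fractions and ASC (3.04 ± 1.00 in Pax7-positive iMPCs, adjusted p = 0.0401, lost with DESeq2 at 0.0572).

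The adaptors and death machinery below the receptors were called in both directions. Of the 20 that were tested, 3 were called higher and 5 lower in Pax7-positive iMPCs, 3 and 4 in Pax7-negative iMPCs, 1 and 4 in ASC, and 2 and 4 in MEFs, with medians from 0.29 to 0.59 on the log2 scale. Of all tested genes, 11.3% were called higher and 9.31% lower in Pax7-positive iMPCs, 12.1% and 6.57% in Pax7-negative iMPCs, 11.8% and 8.24% in ASC, and 11.3% and 8.03% in MEFs, so the higher calls among the adaptors lay near the share of all genes. With scaling by library size, 3, 3, 2 and 2 rose and 1, 0, 2 and 1 fell in the same order of groups. Fadd, the death-domain adaptor, rose in all 4, with 7.85 and 6.82 CPM in Pax7-positive and Pax7-negative iMPCs, 9.22 in ASC and 9.94 in MEFs, against 0.429 and 0.995 CPM in QSC. Birc3 and Ripk1, an inhibitor of apoptosis and a kinase of the receptor complex, and Tank fell in all 4. Birc3 had 2.86 and 24.3 CPM in Pax7-positive and Pax7-negative iMPCs, 2.33 in ASC and 12.9 in MEFs, against 156 and 314 CPM in QSC. Ripk3, the kinase of necroptosis, had 37.2 and 63.5 CPM in the iMPC fractions, 7.92 in ASC and 73.2 in MEFs, against 7.72 and 0.995 CPM in QSC; it rose by 3.09 ± 0.81 in Pax7-positive iMPCs (adjusted p = 0.0126), or by 2.26 and 5.12 against mouse 1 and mouse 3 alone on log2 CPM, a call lost with scaling by library size (0.0609).

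The NF-kappaB genes themselves were mostly higher in QSC. Of 17 subunits, kinases and inhibitors, 1 was called higher and 13 lower in Pax7-positive iMPCs, 1 and 11 in Pax7-negative iMPCs, 2 and 11 in ASC, and 1 and 10 in MEFs, with medians of −3.03, −2.69, −3.24 and −3.24 on the log2 scale. In all 4 comparisons, which share the QSC mice, 9 fell, and the share of all genes that did so was not counted. Over all tested genes the calls were 11.3% higher and 9.31% lower in Pax7-positive iMPCs, 12.1% and 6.57% in Pax7-negative iMPCs, 11.8% and 8.24% in ASC, and 11.3% and 8.03% in MEFs. With scaling by library size, the numbers lower were 6, 4, 7 and 8 and the medians −2.35, −1.98, −2.64 and −2.59. Nfkbia, an inhibitor that NF-kappaB itself induces, had 74.8 and 94.4 CPM in Pax7-positive and Pax7-negative iMPCs, 42.2 in ASC and 41.5 in MEFs, against 1522 and 1227 CPM in QSC. Nfkb1 had 38.7 and 28.5 CPM in the iMPC fractions, 28.9 in ASC and 24.2 in MEFs, against 924 and 398 CPM in QSC. The gene that rose in all 4 was Ikbkg (NEMO), with 48.0 and 47.7 CPM in the iMPC fractions, 78.8 in ASC and 44.0 in MEFs, against 7.96 and 9.40 CPM in QSC.

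Among 22 tested target genes of TNF and NF-kappaB, 3 were called higher and 12 lower in Pax7-positive iMPCs, 5 and 9 in Pax7-negative iMPCs, 2 and 13 in ASC, and 3 and 10 in MEFs. Of these targets 8 fell and 1 rose in all 4 comparisons, which share the QSC mice. The share of all genes called in all 4 was not counted. The share of all tested genes called was 11.3% higher and 9.31% lower in Pax7-positive iMPCs, 12.1% and 6.57% in Pax7-negative iMPCs, 11.8% and 8.24% in ASC, and 11.3% and 8.03% in MEFs, and the 3 higher targets in Pax7-positive iMPCs are near that share. With scaling by library size the numbers lower were 8, 3, 11 and 6. Tnfaip6, which binds hyaluronan in inflamed tissue, showed the largest fall of the list in Pax7-positive iMPCs, with 0.482 and 8.47 CPM in Pax7-positive and Pax7-negative iMPCs, 0.258 in ASC and 13.0 in MEFs, against 968 and 1125 CPM in QSC. Gadd45b and Ier3, early response genes, had 9.81 CPM each in Pax7-positive iMPCs, against 738 and 1037 CPM for Gadd45b and 671 and 419 CPM for Ier3 in QSC. The 3 targets called higher in Pax7-positive iMPCs were Mmp9, Tnfaip2 and Ptgs2. Mmp9, a secreted protease, had 167 and 628 CPM in Pax7-positive and Pax7-negative iMPCs, 2.33 in ASC and 2.20 in MEFs, against 1.95 and 3.89 CPM in QSC. Tnfaip2 had 176 and 484 CPM in the iMPC fractions, 56.7 in ASC and 40.3 in MEFs, against 17.6 and 9.72 CPM in QSC. Mmp9 rose by 5.84 ± 0.66 in Pax7-positive iMPCs (adjusted p = 3.3e-05), or by 6.36 and 5.40 against mouse 1 and mouse 3 alone on log2 CPM, and in ASC and MEFs it did not pass the test.

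**Figure D5:**
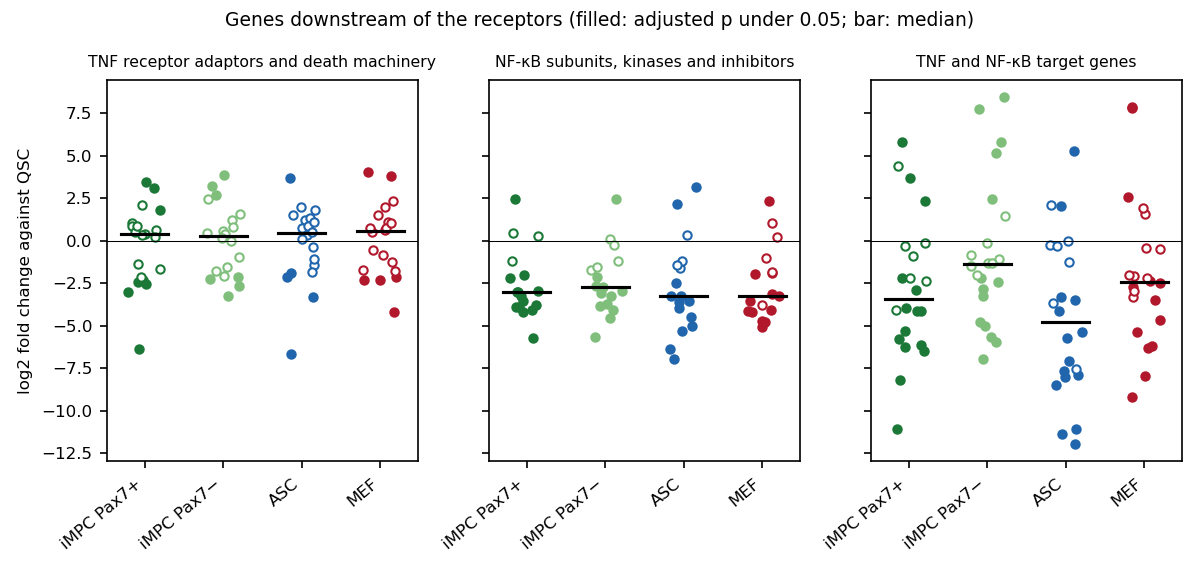
Log2 fold change against QSC for genes below the receptors, 1 point per gene in each of the 4 comparisons (20, 17 and 22 genes in the 3 panels); filled points passed an adjusted p of 0.05 and bars are medians. The NF-kappaB genes lie mostly below 0 with medians from −3.24 to −2.69, and the adaptors spread around 0.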

How the data were processed

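RNA of 6 mouse samples was poly(A)-selected and made into libraries with a directional kit, per the labels' protocols. The submitters' processing notes name STAR 2.3.0, HTSeq 0.6.0, Picard 1.100, edgeR and the build mm9; how these steps were ordered, which gene annotation was used and whether counting used strand are points not given in the sources used. The authors deposited raw read counts per gene and, in a further table, RPKM per gene, which scales reads by gene length and library size. From the deposited RPKM and counts the same gene length was recovered in every library (largest relative deviation 6.44e-15). All other values were computed here from the counts.

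All 6 libraries entered 1 fit (edgeR 4.0.16, with limma 3.58.1, under R 4.3.3) that had 1 coefficient per group and TMM scaling. The default filter of edgeR on low expression, applied by group, left 17116 of 38924 genes. Since a gene could pass on 1 library alone, members near 0 in QSC could enter the tests only through the libraries where they are high. Each group of 1 library was compared with the 2 QSC mice by edgeR's quasi-likelihood test with Benjamini-Hochberg adjustment over all tested genes, at 0.05. The spread rests on 1 residual degree of freedom, from the QSC pair, with 16.3 prior degrees of freedom and a common biological coefficient of variation of 0.476. P-values therefore measure the spread between these samples only. Each SE was not fitted but is the size of the log2 fold change divided by the square root of the test's F statistic. For members near 0 in QSC it can be narrower than the counting error. Between single libraries no test was made: a rule of size (4-fold on log2 CPM with a prior count of 2, and 5 CPM in the higher group) and exact 95% intervals were used. Intervals, and floors of 3 counts, cover counting error only.

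Alternatives were scaling by library size or by DESeq2's size factors, DESeq2 1.42.0, other filters, a preset coefficient of variation of 0.4, only the compared libraries in the fit, another prior count or minimum for the rule of size, and each QSC mouse left out. All members with at least 10 summed counts are reported. From each list of pathway genes, named genes were drawn from those called with the smallest p in Pax7-positive iMPCs, up to 3 in each direction, and those called in most comparisons. Not every gene that this rule gives is named. Tnf, Fasl and Cd40lg are named as ligands although they fall outside it. The members and lists were chosen with earlier results of these data known.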

Additional observations from a re-analysis of the deposited data

How the results depend on the processing

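Every member difference called against QSC kept its direction under every alternative that was tried. With scaling by library size, members called lower numbered 1 in Pax7-positive iMPCs, 1 in ASC and 1 in MEFs, in place of 5, 4 and 5; all-gene calls split 1997 higher and 530 lower, 2140 and 329, 1867 and 501, and 1834 and 459 in Pax7-positive iMPCs, Pax7-negative iMPCs, ASC and MEFs (1931 and 1593, 2065 and 1124, 2021 and 1410, and 1937 and 1374 with TMM), and with DESeq2 1743 and 2011, 1714 and 1647, 1751 and 1934, and 1756 and 1923. With a preset coefficient of variation of 0.4, genes called numbered 6581, 6334, 6534 and 6493 in the same order (3524, 3189, 3431 and 3311 as estimated). Under that setting members called higher were 7 in Pax7-positive and 12 in Pax7-negative iMPCs, and members called lower 3 in Pax7-negative iMPCs, 8 in ASC and 9 in MEFs. With DESeq2, members called lower were 3 in Pax7-negative iMPCs, and higher 4 in ASC and 5 in MEFs. With a filter of 5 CPM in 1 library they were 2 lower in Pax7-negative iMPCs, and 3 higher in ASC and 5 in MEFs; with only the compared libraries, 2 lower in Pax7-negative iMPCs. By the rule of size, scaling by library size gave 2 lower in Pax7-positive iMPCs, 1 lower in Pax7-negative iMPCs, 5 higher and 3 lower in ASC, and 2 lower in MEFs. A minimum of 1 CPM gave 5 higher in ASC and 6 lower in Pax7-positive against Pax7-negative iMPCs. The cause of these shifts was not tested. Leaving out either QSC mouse, members by size ranged over 3 to 3 higher and 3 to 4 lower in Pax7-positive iMPCs, 5 to 6 and 1 to 3 in Pax7-negative iMPCs (1 lower without mouse 1), 4 to 4 and 4 to 4 in ASC, and 6 to 6 and 4 to 5 in MEFs. No paired analysis was possible because every group other than QSC has 1 library. With 1 library in each group other than QSC, differences between cultures of 1 kind could not be measured, and members under about 10 summed counts are below what this depth can compare.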
